A study of Mus musculus with 8 samples.

Results

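Voltage-gated calcium channels were followed through 9 genes of the ventricles of mouse embryos: the T-type pore genes Cacna1g and Cacna1h, the L-type pore genes Cacna1c and Cacna1d, the beta subunit genes Cacnb1, Cacnb2 and Cacnb3, and the alpha2delta subunit genes Cacna2d1 and Cacna2d2. The family was chosen by name, and it was put forward because the mutant difference of Cacna1g was already known to stand out from Cacna1h and the L-type genes. Differences between the groups are therefore given for these genes as a description and support nothing further. All 9 genes were found among the 13869 of the deposited table, and all 9 passed the filter on low values that left 13740 genes for testing.

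Polyadenylated RNA of whole ventricles at E14.5 was read from 1 end in 8 libraries. In the mutant group the genotype is labelled Mib1flox; TnT-Cre, which stands for a floxed Mib1 allele and a Cre transgene that the promoter of cardiac troponin T switches on in cardiomyocytes; the labels do not say how many floxed copies a heart carried. Controls were wild-type siblings, and the labels do not say whether any of them carried Cre or the floxed allele. Each group had 16 hearts pooled into 4 libraries, and no value belongs to a single embryo. That pools were separate litters is nowhere stated, so p values cover only how far these pools differ. Mib1 encodes a ubiquitin ligase that Notch ligands need in order to signal, and the promoter leaves Mib1 intact in the other cells of the ventricle.

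The libraries held 6307634 to 11506082 counts, and 3 counts were worth between 0.2645 and 0.4725 CPM. CPM, the unit of all levels here, is counts for every 1000000 in the normalized library size, inferred from the deposited values. Mib1 (ENSMUSG00000024294), the targeted gene, stood at 106, 103, 95.3 and 96.3 CPM in mutants 1 to 4 and at 150, 166, 160 and 167 CPM in wild types 1 to 4. All 4 mutant pools lay below all 4 wild-type pools, a log2 difference of -0.68 ± 0.06 (SE; limma adjusted p = 8.62e-06), with an exact two-sided permutation p of 0.0286, the smallest that 4 against 4 libraries can give. Marker genes of working cardiomyocytes were abundant in every library. Tnnt2, Myh6, Myh7, Actc1, Ryr2 and Atp2a2 summed to 31800 to 33900 CPM in mutants and 32800 to 36600 CPM in wild type. Of these 6 genes 0 were called, against 2.24% of all genes tested. Tnnt2, whose promoter drives the Cre, had the smallest p of them, at -0.21 (limma adjusted p = 0.0658). Its groups did not overlap, and it was called lower in 4 alternatives, with adjusted p values of 0.0138 to 0.0482.

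A voltage-gated calcium channel is built around an alpha1 subunit whose 4 repeats close around a pore, and the pore is selective for calcium because each repeat contributes 1 acidic residue to a ring. L-type channels carry the calcium that triggers release from the sarcoplasmic reticulum in a working heart muscle cell, and they depend on beta subunits, which bring the pore subunit to the membrane, and on alpha2delta subunits, which sit outside the membrane. T-type channels open at more negative voltages, work without obligatory auxiliary subunits, and are known from the fetal heart and from pacemaker and conduction tissue.

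The difference between the T-type and L-type pore genes can be read in their coding sequence. Below are the 27 bases around the filter codon of repeats III and IV, shown because these repeats separate the 2 classes; capitals mark the codon of the acidic residue, and sequences are from the GENCODE M21 transcripts.
Cacna1g repeat III: tttgtgctggcctccaagGATggctgg
Cacna1h repeat III: ttcgtgctgtcatccaagGATggctgg
Cacna1c repeat III: ttcaccgtctccaccttcGAAgggtgg
Cacna1d repeat III: ttcacagtctcaacttttGAGggctgg
Cacna1g repeat IV: ttccgagtctccactggtGACaactgg
Cacna1h repeat IV: ttccgagtgtccactgggGACaactgg
Cacna1c repeat IV: ttcaggtgtgccaccggaGAGgcctgg
Cacna1d repeat IV: ttcaggtgtgcaacagggGAAgcctgg
Cacna1g and Cacna1h have an aspartate codon in both repeats, and Cacna1c and Cacna1d a glutamate codon in both. Repeats I and II have a glutamate codon in all 4 genes. The longest reading frames have 7143 bases in Cacna1g, 7077 in Cacna1h, 6666 in Cacna1c and 6537 in Cacna1d. Related as they are, the genes share little exact sequence: of words of 35 bases, Cacna1g and Cacna1h shared 22, out of 10361 and 9815, and Cacna1c and Cacna1d shared 10.

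Of the 9 genes, Cacna1g was higher in Mib1 mutant ventricles, Cacna1d and Cacna2d2 were lower, and 6 were not called. Calling rests on limma's moderated test on log2 CPM, with Benjamini-Hochberg adjustment over every tested gene and a threshold of 0.05. Over all genes, 2.24% were called in either direction, 0.99% higher and 1.25% lower in the mutants. The median log2 difference was 0.08 over the 9 genes and 0 over all genes tested. In 4 of the 9 genes the mutant and wild-type libraries did not overlap (Cacna1g, Cacna1d, Cacnb2 and Cacna2d2), and over all genes 8.89% did not. As the genes were chosen with this contrast known, nothing is read from these shares.

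**Figure D1:**
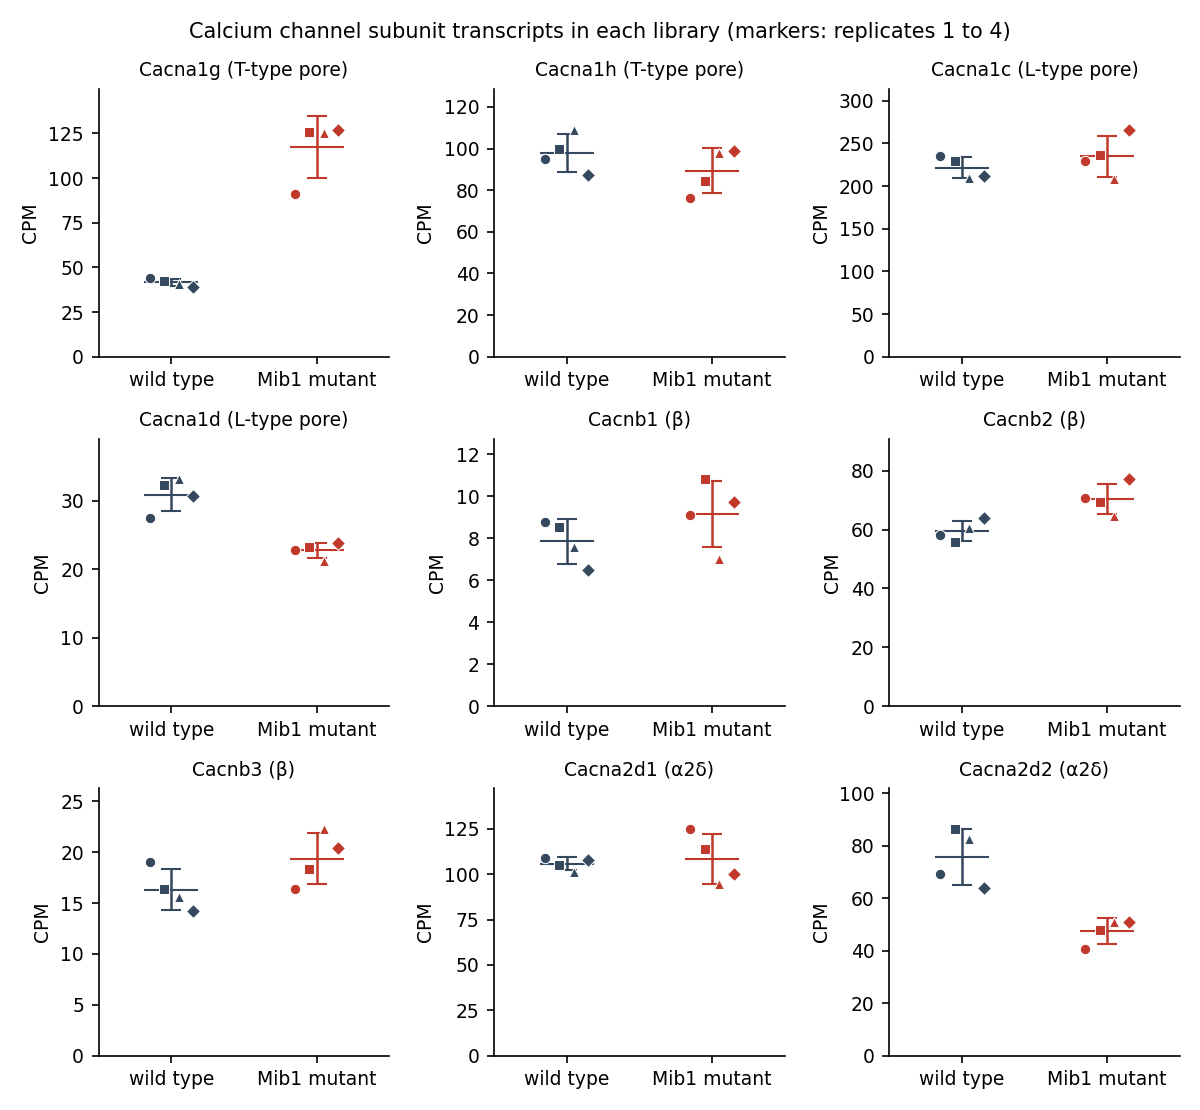
CPM of the 9 channel genes in each of the 8 libraries, 1 panel per gene with its own axis from 0; symbols mark replicates 1 to 4, the horizontal line is the mean and the bars are ± 1 SD over 4 libraries. Cacna1g is at 91.3 to 127 CPM in mutants against 39.2 to 44.1 CPM in wild type, Cacna1d and Cacna2d2 lie lower in all 4 mutants, and the 2 groups overlap for Cacna1h, Cacna1c, Cacnb1, Cacnb3 and Cacna2d1.

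Among the T-type pore genes, Cacna1g (ENSMUSG00000020866, chromosome 11) encodes the T-type pore known from the atrioventricular node and the fetal ventricle. It stood at 91.3, 126, 125 and 127 CPM in mutants 1 to 4 and at 44.1, 42.3, 40.8 and 39.2 CPM in wild types 1 to 4. The lowest mutant pool was thus above the highest wild-type pool, and mutant 1 lay apart from the 3 other mutants. The means were 117 ± 17.3 and 41.6 ± 2.08 CPM (SD, n = 4), a 2.79-fold rise, or 1.48 ± 0.09 on the log2 scale (SE; 95% interval 1.28 to 1.68; limma adjusted p = 5.37e-07). By p value it had rank 9 among the 13740 genes, and by size it had rank 12 among rises. These levels rest on 259 to 1036 counts per library. In tissue taken whole, more cells that transcribe a gene and more RNA of that gene per cell cannot be told apart.

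Cacna1h (ENSMUSG00000024112, chromosome 17), the other T-type pore gene of the fetal ventricle, was not called. Its levels were 76.4, 84.6, 97.9 and 98.8 CPM in the mutants and 95, 100, 109 and 87.5 CPM in wild type. The groups overlapped, with means of 89.4 ± 10.8 and 97.8 ± 8.94 CPM, and the log2 difference of -0.13 ± 0.09 (95% interval -0.32 to 0.05; limma adjusted p = 0.512) was within the spread of the pools. The interval of Cacna1h ends below the point where that of Cacna1g begins. Its exons share 158 bases with Tpsg1 on the opposite strand, while no exon overlap is annotated for Cacna1g.

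Within each library, the order of the T-type genes on the log2 CPM scale was turned around. Cacna1g minus Cacna1h was 0.26, 0.57, 0.35 and 0.36 in mutants 1 to 4 and -1.11, -1.24, -1.41 and -1.16 in wild types 1 to 4. In CPM, every mutant pool had more Cacna1g than Cacna1h, and every wild-type pool less. The mean moved from -1.23 ± 0.14 to 0.39 ± 0.13 (SD, n = 4), a shift of 1.62 from which any scaling common to a library cancels. These genes have nearly equal transcript lengths, 8383 and 8230 bases for the longest annotated form. Per kilobase of that form, Cacna1g made up 54, 59.4, 55.6 and 55.8% of the T-type transcripts in the mutants and 31.3, 29.3, 26.9 and 30.6% in wild type.

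Of the L-type pore genes, Cacna1c (ENSMUSG00000051331, chromosome 6), the main L-type pore gene of ventricular muscle, had levels of 229, 237, 208 and 266 CPM in the mutants and 235, 229, 210 and 212 CPM in wild type. Mutant 4 was the highest of the 8 and mutant 3 the lowest. Its means were 235 ± 23.8 and 222 ± 12.3 CPM, a log2 difference of 0.08 ± 0.07 (95% interval -0.07 to 0.23; limma adjusted p = 0.637). Per kilobase of the longest transcript it had the highest mean of the 9 genes in both groups, overlapping Cacna2d1 in the mutants. By median annotated length, Cacna1c was below Cacna1h in both groups.

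Cacna1d (ENSMUSG00000015968, chromosome 14) encodes the L-type pore best known from the sinoatrial node and the atria, which opens at more negative voltages than that of Cacna1c. It was at 22.8, 23.2, 21.2 and 23.8 CPM in the mutants and at 27.5, 32.2, 33.1 and 30.7 CPM in wild type. All mutant pools lay below all wild-type pools. Means of 22.8 ± 1.08 and 30.9 ± 2.44 CPM (SD, n = 4) gave a 1.35-fold fall, or -0.44 ± 0.08 on the log2 scale (95% interval -0.61 to -0.26; limma adjusted p = 0.0103). Without wild type 2 the adjusted p was 0.0522 at a difference of -0.42, and the call was lost. An exon overlap of 589 bases with Chdh on the opposite strand is annotated, and it is not stated whether counting used the strand.

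The L-type genes thus differed from each other in the 2 groups: Cacna1c minus Cacna1d was 3.36 ± 0.08 on the log2 scale in the mutants and 2.84 ± 0.18 in wild type, with no overlap. Set against the mean of both L-type genes, Cacna1g stood at 0.34, 0.76, 0.91 and 0.67 in mutants 1 to 4 and at -0.87, -1.02, -1.03 and -1.04 in wild types 1 to 4. The shift between the group means was 1.66, close to the shift against Cacna1h. Mutant 1 was the lowest mutant pool in both comparisons.

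**Figure D2:**
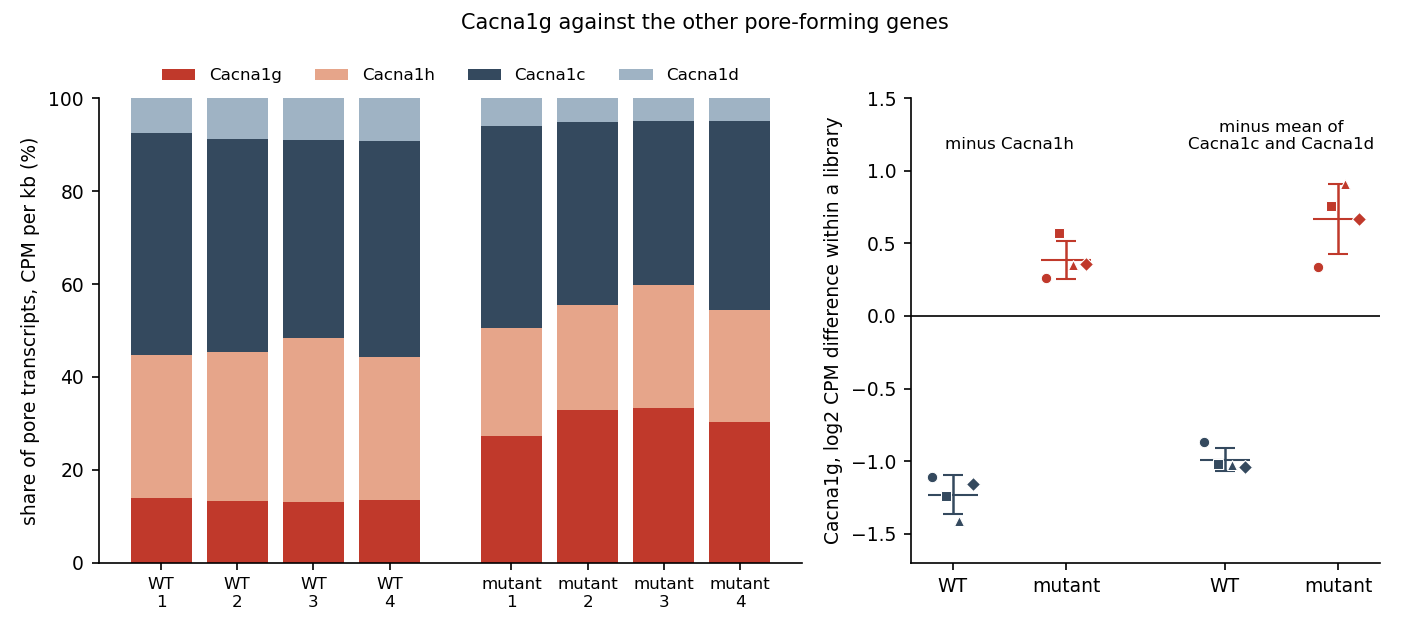
Left, share of each of the 4 pore genes in their summed CPM per kilobase, 1 bar per library; right, log2 CPM of Cacna1g minus that of Cacna1h, and minus the mean of Cacna1c and Cacna1d, with symbols for replicates 1 to 4 and lines for mean ± SD. The Cacna1g part of the bars is 27.3 to 33.3% in mutants and 13 to 14% in wild type, and both differences are above 0 in all mutant pools and below 0 in all wild-type pools.

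Levels of different genes were compared per kilobase of the longest annotated transcript. Cacna1g made up 27.3, 32.9, 33.3 and 30.4% of the transcripts of the 4 pore genes in mutants 1 to 4, and 14, 13.3, 13 and 13.5% in wild types 1 to 4. On the same scale the share of Cacna1h was 24.1 ± 1.76% against 32.2 ± 2.16%, that of Cacna1c 39.7 ± 3.43% against 45.7 ± 2.19%, and that of Cacna1d 5.26 ± 0.467% against 8.68 ± 0.741% (mutant against wild type, SD, n = 4). Shares add to a fixed total, so a larger share of Cacna1g lowers the others whether or not their levels differ. Summed CPM per kilobase shows the parts apart: T-type genes summed to 24.9 ± 3.22 in the mutants and 16.9 ± 1.16 in wild type, without overlap, and L-type genes to 20.2 ± 1.92 and 20 ± 0.79, with overlap.

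The size of these shares depends on the length that is used. With the coding length Cacna1g made up 24.2 ± 2.56% in the mutants and 10.1 ± 0.237% in wild type, and with the median annotated length 11.9 ± 1.08% and 4.36 ± 0.259%. The joint T-type share was 55.1 ± 3.82% in the mutants against 45.7 ± 1.82% in wild type by the longest transcript. By coding length it was 42.8 ± 3.8% against 34.1 ± 1.72%, and by median length it was 69 ± 3.11% against 68.6 ± 2.01%, since many short annotated forms give Cacna1h a median of 1270.5 bases. The order of the T-type genes also depends on the length. Cacna1g made up 56.4 ± 2.26% of the T-type transcripts in the mutants and 29.7 ± 1.94% in wild type by coding length. By median length it made up 17.2 ± 1.34% and 6.36 ± 0.547%, below Cacna1h in both groups. Among the 4 pore genes Cacna1h was then first, at 57.1 ± 2.67% in the mutants and 64.2 ± 2.26% in wild type. Cacna1c followed at 27.7 ± 2.82% and 26.9 ± 2.07%.

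Beta subunits bind the linker between the first repeats of the L-type pore subunit. Cacnb2 (ENSMUSG00000057914, chromosome 2), the main beta gene of the heart, was at 70.6, 69.3, 64.5 and 77.1 CPM in the mutants and at 58.2, 55.9, 60.5 and 63.9 CPM in wild type. The groups did not overlap, but the highest wild-type and the lowest mutant pool differed by less than 1 CPM. With means of 70.4 ± 5.2 and 59.6 ± 3.41 CPM the log2 difference was 0.24 ± 0.07 (95% interval 0.09 to 0.38; limma adjusted p = 0.092), which did not pass. It passed when mutant 3 was left out (0.28, limma adjusted p = 0.0379) and when libraries were weighted by their spread (0.26, adjusted p = 0.0398).

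Cacnb3 (ENSMUSG00000003352, chromosome 15) was measured at 16.4, 18.4, 22.3 and 20.4 CPM in the mutants and 19, 16.4, 15.6 and 14.2 CPM in wild type. The difference of 0.25 ± 0.12 was as large as that of Cacnb2, with overlapping groups and a limma adjusted p of 0.34. Cacnb1 (ENSMUSG00000020882, chromosome 11), the beta gene of skeletal muscle, was the lowest of the 3, at 9.08, 10.8, 7.03 and 9.72 CPM against 8.79, 8.55, 7.56 and 6.48 CPM in wild type (0.21 ± 0.15, 95% interval -0.11 to 0.54; limma adjusted p = 0.559). All 3 beta genes had differences above 0 and none was called. Their summed level per kilobase was 22.7, 23.7, 23 and 25.7 in the mutants and 21.1, 19.6, 20 and 19.8 in wild type, groups that did not overlap. Cacnb2 made up 58.8 ± 2.61% of it in the mutants and 59 ± 4.15% in wild type.

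Alpha2delta subunits are cleaved glycoproteins that raise the number of channels at the cell surface. Cacna2d2 (ENSMUSG00000010066, chromosome 9) was at 40.5, 48, 50.9 and 51 CPM in the mutants and at 69.3, 86.4, 82.7 and 63.9 CPM in wild type. The highest mutant pool was below the lowest wild-type pool. Its means were 47.6 ± 4.93 and 75.6 ± 10.7 CPM (SD, n = 4), a 1.58-fold fall, or -0.66 ± 0.1 on the log2 scale (95% interval -0.88 to -0.45; limma adjusted p = 0.0023). The call held with each library left out, with adjusted p values of at most 0.0466 over all alternatives. Its exons share 82 bases with a predicted gene on the opposite strand, and those of Cacnb2 share up to 618 bases with each of 3 predicted genes.

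Cacna2d1 (ENSMUSG00000040118, chromosome 5), the more abundant of this pair in CPM, was at 125, 114, 94.7 and 100 CPM in the mutants and at 109, 105, 101 and 108 CPM in wild type. Mutants covered the whole range of wild type, from below its lowest to above its highest pool. The difference was 0.03 ± 0.08 (95% interval -0.14 to 0.19; limma adjusted p = 0.906), and it was -0.04 without mutant 1. Cacna2d1 minus Cacna2d2 was 1.63, 1.25, 0.9 and 0.98 on the log2 scale in the mutants and 0.66, 0.28, 0.29 and 0.76 in wild type. Per kilobase, Cacna2d2 made up 36.1 ± 5.16% of the alpha2delta transcripts in mutants and 47.6 ± 4.31% in wild type.

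**Figure D3:**
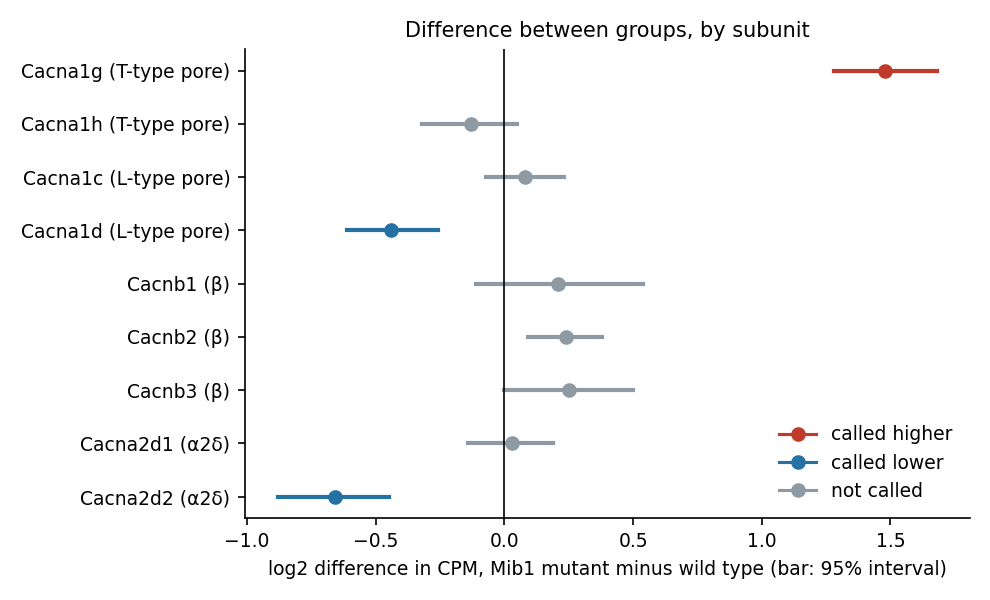
Log2 difference in CPM, mutant minus wild type, for the 9 channel genes from limma; points are estimates and bars 95% intervals, coloured by whether the gene was called over all genes tested. Cacna1g is at 1.48, Cacna1d at -0.44 and Cacna2d2 at -0.66, and the other 6 lie between -0.13 and 0.25.

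Cacna1g and Cacna2d2 changed their places in the order of the 9 genes per kilobase. In wild type the order of mean CPM per kilobase was Cacna1c at 16.8 ± 0.937, Cacna2d1 at 14.2 ± 0.516, Cacna2d2 at 13 ± 1.84, Cacna1h at 11.9 ± 1.09, Cacnb2 at 11.9 ± 0.678, Cacnb3 at 5.96 ± 0.744, Cacna1g at 4.96 ± 0.248, Cacna1d at 3.2 ± 0.252 and Cacnb1 at 2.31 ± 0.31 (SD, n = 4). Neighbours from Cacna2d1 to Cacnb2 overlapped over the libraries, as did Cacnb3 with Cacna1g, while the other steps were clear of overlap. In the mutants Cacna1g had moved up to 14 ± 2.06, level with Cacnb2 at 14 ± 1.03 and overlapping Cacna2d1 at 14.6 ± 1.84 and Cacna1h at 10.9 ± 1.32. Cacna1c, at 17.8 ± 1.81, still had the highest mean and overlapped Cacna2d1. Cacna2d2 had moved down to 8.19 ± 0.849, below Cacna1h without overlap and next to Cacnb3 at 7.09 ± 0.929. At the bottom, Cacnb1 at 2.7 ± 0.468 and Cacna1d at 2.36 ± 0.112 overlapped.

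**Figure D4:**
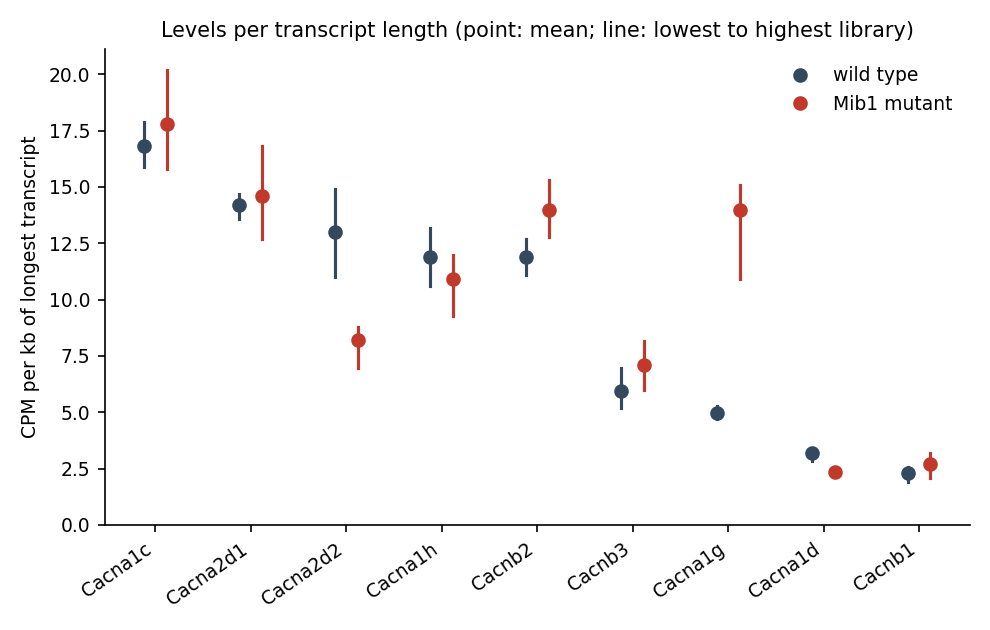
CPM per kilobase of the longest annotated transcript for the 9 channel genes, in the order of their wild-type means; points are means and lines run from the lowest to the highest of 4 libraries. Cacna1g moves from 4.96 in wild type to 14 in the mutants and Cacna2d2 from 13 to 8.19. Cacna1c has the highest mean in both groups and overlaps Cacna2d1 in the mutants.

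The remaining voltage-gated calcium channel genes were near or below 10 CPM. Of 17 further subunit genes listed, 7 were tested and 0 were called by limma, with a median difference of 0.05; 10 were not analysed here. Over all tested genes 2.24% were called. Voom weights gave 0 calls among the 7 as well. By unadjusted limma p, 1 of the 7 was under 0.05, and so were 2033 of all 13740 tested genes, so nothing is read from that count. That gene, Cacng6, a gamma subunit gene, was at 1.41, 1.53, 1.95 and 2.12 CPM in the mutants and at 4.47, 3, 2.99 and 2.81 CPM in wild type. The groups did not overlap, but only 12 to 31 counts per library stood behind the difference of -0.90 ± 0.24 (limma adjusted p = 0.074). In CPM, not divided by length, the highest level in this list was that of Cacna1a, a neuronal pore gene. It was at 9.99 ± 1.56 CPM in the mutants and 8.29 ± 1.44 CPM in wild type.

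Regulators of the channels were taken as a list of 33 genes. Of these 30 were tested, 1 rose, 2 fell and 27 were not called, with a median of 0.02. Over all tested genes 0.99% were called higher and 1.25% lower. The list was chosen with earlier results known, so nothing is read from its count. The riser was Adcy5, which encodes an adenylyl cyclase of heart muscle on the beta-adrenergic route to protein kinase A. It was at 154, 169, 150 and 165 CPM in the mutants and 130, 131, 127 and 130 CPM in wild type, without overlap (0.30 ± 0.05, limma adjusted p = 0.00631; 0.0506 with no trend in the variance prior, which ends the call). Its relative Adcy6, the more abundant gene in CPM, stood at -0.09 ± 0.06. The receptor gene Adrb1 stood at -0.19 ± 0.19 and the G protein gene Gnas at -0.11 ± 0.05.

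Bin1, which encodes a membrane-bending protein that delivers L-type channels to T-tubules, fell from 15.9, 17.1, 15.1 and 14.8 CPM in wild type to 9.61, 10.9, 11.8 and 11.5 CPM in the mutants. The groups did not overlap (-0.52 ± 0.10, limma adjusted p = 0.0174), and the call was lost without wild type 1 (adjusted p = 0.062) or wild type 2 (adjusted p = 0.0743). Camk2a, a gene of the calmodulin-dependent kinase family that acts on L-type channels, fell by 0.26 ± 0.06, from 166 ± 9.45 to 138 ± 7.04 CPM (limma adjusted p = 0.0244). That call was lost without mutant 2, wild type 1, wild type 2 or wild type 3, with limma adjusted p values from 0.0538 to 0.102, and with no trend in the variance prior (0.119). Camk2d, the main cardiac member of that family, stood at 0.01 ± 0.07.

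The other tested regulators were not called. Rrad, a small GTPase that binds beta subunits and holds back L-type current, was at 145 ± 16.9 CPM in the mutants and 159 ± 12.4 CPM in wild type (-0.13 ± 0.08). Its relatives Rem1, Gem and Rem2 stood at -0.17, 0.10 and 0.13. Of the catalytic and regulatory genes of protein kinase A, Prkaca stood at 0.02, Prkacb at 0.08, Prkar1a at 0.06 and Prkar2a at 0.06, and the anchor genes Akap5, Akap6 and Akap7 at 0.22, 0.15 and 0.03. Jph2, which ties the T-tubule to the sarcoplasmic reticulum, stood at -0.06 ± 0.07 and the caveolin gene Cav3 at -0.21 ± 0.06 (limma adjusted p = 0.0925).

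**Figure D5:**
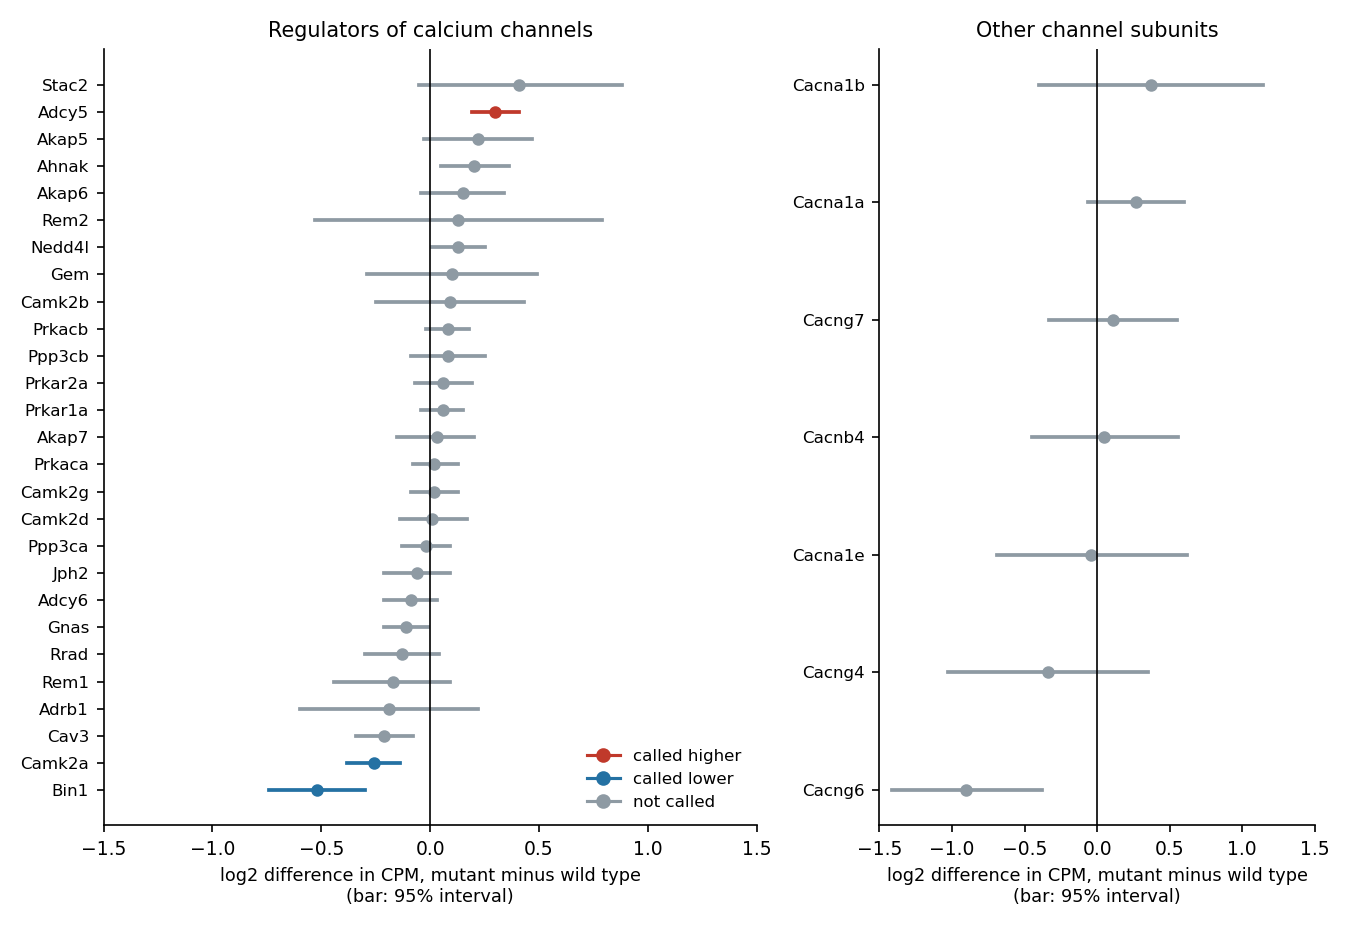
Log2 difference in CPM, mutant minus wild type, for 27 of the 30 tested regulator genes and for the 7 other tested channel genes, from limma; points are estimates and bars 95% intervals. Adcy5 at 0.30 is the only called rise, Bin1 at -0.52 and Camk2a at -0.26 are the called falls, and Cacng6 at -0.90 has the widest distance from 0 without a call.

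Markers of the tissues in which these channels are also known were read in the same libraries. Over all tested genes 2.24% were called, and nothing is read from the counts of called markers. Of 10 conduction and pacemaker genes listed, 7 were tested, 2 rose (Gjc1 by 0.30 and Tbx3 by 0.50 on the log2 scale) and 2 fell (Gja5, at -1.45, and Hcn4, at -0.49). Their summed level was 416 to 453 CPM in the mutants and 488 to 510 CPM in wild type, within which Gja5, a connexin gene of trabeculae and conduction fibres, went from 169 ± 3.67 CPM in wild type to 62.2 ± 5.74 CPM in the mutants. The calls of Hcn4 and Tbx3 each failed in 7 of 8 leave-one-out fits. Of 6 atrial genes 5 had differences below 0 (median -0.25), Kcnj3 was called lower (-0.67) and Myl7 higher (0.37), a call that failed in 6 of 8 leave-one-out fits. The summed levels of the atrial genes overlapped, at 1370 to 1640 and 1390 to 1520 CPM. Markers of neurons and glia, which also transcribe these channel genes, summed to 14.9 to 19.2 CPM in the mutants and 14.2 to 19.1 CPM in wild type, with 0 of 4 called. Of these 4 genes 3 had differences above 0 and 1 below. Elavl4 had the smallest p of them (0.54 ± 0.23, limma adjusted p = 0.287).

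Some genes listed as markers of other cell types differed, and which cells transcribed them was not tested. Over all tested genes 2.24% were called, and nothing is read from the counts of called markers here. Smooth muscle and pericyte genes summed to 1370 to 1540 CPM in the mutants against 1070 to 1240 CPM in wild type, a sum that is mostly Acta2 (1090 against 846 CPM). Of these 6 genes Acta2 and Cnn1 were called higher, 4 had differences above 0, and Pdgfrb (-0.06) and Myh11 (-0.46) lay below. Myh11 rested on 7 to 44 counts per library, with overlapping groups. Endothelial and endocardial genes summed to 759 to 793 against 900 to 930 CPM (Plvap, Npr3 and Tek of 6 called lower), erythroid genes to 677 to 1100 against 1150 to 1410 CPM (Hba-a1 of 5 called lower) and macrophage genes to 47.9 to 58.8 against 75.3 to 90.2 CPM (Lyz2 and C1qc of 6 called lower). Fibroblast genes summed to 2410 to 2680 against 2490 to 2750 CPM with 0 of 5 called. Of these 5 genes 1 had a difference above 0 and 4 below, and Col1a1 had the smallest p (-0.15 ± 0.07, limma adjusted p = 0.373). Of 4 skeletal muscle genes listed, Myod1 and Myog were not analysed. The tested genes Acta1 and Ckm summed to 664 to 776 against 587 to 698 CPM with 0 called. No analysed marker was at 0 in all libraries. Among 8 leave-one-out fits, the call of Tek failed in 7, those of Hba-a1 and C1qc in 6 each and that of Cnn1 in 5. In 13 other settings, the call of Hba-a1 was lost in 5, that of Tek in 3, and those of Cnn1 and C1qc in 1 each. With no trend in the variance prior, the calls of Acta2 (limma adjusted p = 0.0688) and Npr3 (0.05 after rounding) were lost too. The part of these marker differences in the levels of Cacna1g, Cacna1d and Cacna2d2 was not tested.

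The genes whose log2 CPM followed that of Cacna1g most closely over the 8 libraries were sought among 10762 others with a mean of at least 5 CPM. They were Fhl2, a LIM-domain protein gene of heart muscle (Pearson r = 0.99), Pygb, a glycogen phosphorylase gene (0.99), Itga9, an integrin gene (0.98), Synj2, a phosphoinositide phosphatase gene (0.98), and Adamtsl2, a gene of the extracellular matrix (0.98). All 5 were called higher in the mutants, with log2 differences of 0.50, 0.22, 0.58, 0.63 and 1.16, so that most of each correlation is the step between the 2 groups. After removal of the group means, r was 0.68 for Fhl2, 0.67 for Pygb, 0.57 for Itga9, 0.61 for Synj2 and 0.72 for Adamtsl2, values that the choice of the genes on these libraries partly fixes. The call of Pygb was lost without any 1 of the 4 wild-type libraries (limma adjusted p = 0.0536 to 0.0596). Fhl2 went from 218 ± 5.55 CPM in wild type to 308 ± 6.6 CPM in the mutants, and Adamtsl2 from 15.6 ± 1.76 to 34.9 ± 4.44 CPM.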

How the data were processed

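The authors deposited 1 table of 13869 genes by Ensembl identifier in 8 columns. Per the submitters' processing notes, cutadapt 1.2.1, RSEM 1.16, Bowtie2 0.12.7, limma and edgeR were used, with build mm9; their order and settings are not given in the sources used here. The deposited values are scores: each is a log2 CPM with a prior of 0.5 counts times a constant that makes its column sum to 1000000. Dividing by the constants and applying normalized library sizes gave back whole counts for 100% of values (tolerance 0.001 counts). Those sizes were inferred from the lowest value of each column, taken as 0 counts, and CPM was computed with them.

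The comparison of the groups used limma 3.58.1 (R 4.3.3; eBayes with a trend, group as the only term) on log2 CPM, two-sided, for genes whose log2 CPM averaged at least 0. No count model was run, and voom weights computed from the recovered counts were used only as an alternative. Each difference is a log2 ratio, mutant to wild type, and its SE is moderated. Pipelines were tested on simulated data. Symbols, chromosomes, transcript lengths and sequences came from GENCODE M21 (GRCm38); the named build differs, so no positions are given. Pore codons were read from the longest reading frame, where the amino acids spell a phenylalanine, 3 places, serine or threonine, 1 place, the acidic residue, 1 place and tryptophan; pore proteins had been planned and were not used here.

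Members and lists were chosen with earlier results of these data known. The text names all members, Mib1, up to 4 called members of each other list (or the one of smallest p), and the 5 genes most correlated with Cacna1g; some list members are not reported here, and other list members named were chosen after their values were seen. Of 24 alternatives, 3 were chosen after seeing the data: coding length, voom weights, and the deposited scaling kept.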

Additional observations from a re-analysis of the deposited data

Results flagged for a closer look

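Within each group of 4 libraries, the named genes and summed quantities were searched for a library far from the other 3 (gap over range above the critical value of Dixon's test). Of 108 groups searched 4 stood out, and chance alone would single out about 1 in 20 such groups. Mutant 1 had the lowest Cacna1g level, 91.3 CPM against 125 to 127 CPM in the other mutants. From 1036 counts its Poisson 95% interval was 85.9 to 97.1 CPM, which covers counting error only and not the spread between pools. Mutant 1 was set apart in this way as the lowest mutant in 109 of 13740 genes (0.793%). Without it the Cacna1g call held. Wild type 1 had the highest Cacng6 level, 4.47 CPM against 2.81 to 3 CPM. In the same library Cacna1g minus the mean of Cacna1c and Cacna1d was -0.87 against -1.04 to -1.02 in the other wild types. Wild type 4 had the lowest summed level of the 4 pore genes, 34.6 CPM per kilobase against 37.5 to 37.9.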

How the results depend on the processing

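Cacna1g and Cacna2d2 were called in all 13 alternative settings and all 8 fits with a library left out (log2 difference 1.38 to 1.60 and -0.74 to -0.59), and Cacna1h, Cacna1c, Cacnb1, Cacnb3 and Cacna2d1 in none of them. Cacna2d1 changed sign to -0.04 without mutant 1 (-0.04 to 0.09 over the fits with a library left out). Called genes numbered 179 (70 higher, 109 lower) with no trend in the variance prior and 490 (226 higher, 264 lower) with array weights, and with a library left out 146 to 477, of which 64 to 208 higher and 81 to 269 lower. The count was lowest without wild type 1 and highest without mutant 3; without mutant 2 it was 183, without wild type 2 it was 147 and without wild type 3 it was 161. Of the 9 channel genes, 2 were called higher with array weights and 1 to 2 with a library left out (Cacnb2 joining without mutant 3), and 1 to 2 were called lower (Cacna1d lost without wild type 2), in all 2 to 4. Of the regulators, 1 was called with no trend (0 higher, 1 lower), and 1 to 5 with a library left out (1 to 3 higher, 0 to 2 lower). The difference in the Cacna1g share of pore transcripts, 17.5 percentage points by longest transcript, was 7.53 by median length, 14.6 with no length, 14.1 by coding length and 16.7 to 18.7 with a library left out. Cacna1g minus Cacna1h shifted by 1.55 to 1.66 and Cacna1g minus the L-type mean by 1.58 to 1.77. The cause of these changes was not tested, apart from the lengths themselves. Deviations of libraries sharing a replicate number had correlations of -0.0068, -0.038, 0.1 and -0.032. Wild type 3 correlated best with mutant 3, and no other library correlated best with its own number. With 4 pools per group, these values neither show nor exclude a pairing. With the replicate block 240 genes were called (104 higher, 136 lower), 3 of the 9 channel genes (1 higher, 2 lower), and 1 regulator lower. Camk2a (limma adjusted p = 0.0569) lost its call, as did Pygb (0.0569), Tek (0.104), Hcn4 (0.0718) and Tbx3 (0.103). The block lowered the limma adjusted p of Myl7 (0.0471 to 0.00994) and Hba-a1 (0.0482 to 0.0196). Depth limits genes such as Cacng6, at 12 to 31 counts.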

Other observations

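The tested genes beside Cacna1g had log2 differences from -0.45 to 0.2, against 1.48 for Cacna1g. Among the 5 on each side in the GRCm38 gene order limma called 0 of 10, against 2.24% of all genes. By unadjusted limma p, 1 of the 10 was under 0.05, as were 2033 of the 13740 tested genes. It was Tob1, an antiproliferative gene and the outermost on its side, at 0.15 with a limma adjusted p of 0.322. The nearest on either side, the transporter gene Abcc3 and the endocytosis gene Epn3, stood at -0.45 ± 0.29 and 0.02 ± 0.07 (SE), Abcc3 from a wild-type level of 2.94 CPM.

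Both regulators that fell, Bin1 and Camk2a, lie on chromosome 18, the chromosome of Mib1. Nedd4l, the third of the tested regulators on that chromosome, stood at 0.13 ± 0.05 and was not called, and none of the 9 channel genes lies there. Of 341 tested genes of that chromosome 13 were called (3.81%), 8 of them lower. Mib1 itself, Bin1 and Camk2a are among those 8. On other chromosomes 290 of 12973 tested genes were called (2.24%), 161 of them lower. The shares were not compared by a test.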
